A study of Mus musculus with 4 samples.

Results

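Glul, Slc1a2, Fabp7, Ndrg2, Sparcl1 and Dbi are 6 genes known for their expression in astrocytes, with roles in glutamate uptake and conversion, lipid handling and the matrix. They were looked up by symbol in the clone annotation of the array platform, taking every spot assigned to exactly 1 gene. The lookup gave 10 spots of the 28704 on the array, with 4 spots for Glul, 2 for Ndrg2 and 1 each for Slc1a2, Fabp7, Sparcl1 and Dbi. In all, 18511 spots were assigned to 1 gene and covered 10225 genes.

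Total RNA was taken from the spinal cords of adult SJL/J mice, all female. Control mice were compared with mice that had AT-EAE, adoptive-transfer experimental autoimmune encephalomyelitis, in which myelin-reactive T cells passed to recipients cause inflammation of the white matter. An extract pooled the cords of 2 mice, so single animals cannot be followed, and the stage of disease is not given in the sources used here. Both channels of a cDNA array held extracts of 1 group: extracts 1 and 2 on array 1 of that group, and extracts 3 and 4 on its array 2. The 4 arrays (2 per group) thus give a log ratio between a pair of control extracts or between a pair of AT-EAE extracts, and no AT-EAE to control ratio of a level. Base 2 was assumed for the logarithm, and the channel in the numerator is not given in the sources used here. Whole cord was extracted, so fewer astrocytes and less RNA per astrocyte cannot be told apart.

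Astrocytes clear the glutamate that neurons release. Slc1a2 encodes GLT-1 (EAAT2), the main glutamate transporter of astrocytes, and Glul encodes glutamine synthetase, which turns the glutamate into glutamine that is handed back to neurons. Fabp7 is a fatty acid binding protein of astrocytes and radial glia, and Dbi binds acyl-CoA and is the source of peptides that act on GABA-A receptors. Ndrg2 is a cytoplasmic protein rich in astrocytes, and Sparcl1 (hevin) is a matrix protein that astrocytes secrete and that promotes the forming of synapses.

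On GRCm38.p6, the build of the RefSeq gene table, Glul lies at chr1:153899929-153909723 and Dbi at chr1:120113280-120121096. Slc1a2 spans chr2:102658239-102790784, Sparcl1 chr5:104079108-104114088, Fabp7 chr10:57784923-57788450 and Ndrg2 chr14:51905271-51914004. Slc1a2 is the longest of the 6, at 133 kb from first to last base. Sparcl1 spans 35.0 kb, Glul 9.80 kb, Ndrg2 8.73 kb, Dbi 7.82 kb and Fabp7 3.53 kb. The part of a gene that each cDNA clone covers was not analysed here.

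The 250 bases upstream of the listed RefSeq transcription start are shown for Glul and Fabp7, which had high ratios on control array 2, and for Slc1a2, which had a low one there. All 3 are on the plus strand of GRCm38.p6, at chr1:153899679-153899928 for Glul, chr10:57784673-57784922 for Fabp7 and chr2:102706188-102706437 for Slc1a2. Capitals mark CCAAT (or ATTGG, its reverse complement) and GGGCGG (or CCGCCC).
Glul: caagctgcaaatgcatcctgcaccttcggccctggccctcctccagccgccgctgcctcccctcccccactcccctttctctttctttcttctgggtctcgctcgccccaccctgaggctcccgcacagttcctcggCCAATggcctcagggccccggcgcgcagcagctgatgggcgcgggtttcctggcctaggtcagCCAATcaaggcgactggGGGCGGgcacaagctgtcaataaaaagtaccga
Fabp7: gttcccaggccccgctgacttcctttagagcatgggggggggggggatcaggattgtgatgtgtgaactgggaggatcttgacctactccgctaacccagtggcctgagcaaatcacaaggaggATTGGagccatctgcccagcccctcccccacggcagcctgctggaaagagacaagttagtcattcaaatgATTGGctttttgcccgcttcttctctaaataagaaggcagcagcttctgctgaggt
Slc1a2: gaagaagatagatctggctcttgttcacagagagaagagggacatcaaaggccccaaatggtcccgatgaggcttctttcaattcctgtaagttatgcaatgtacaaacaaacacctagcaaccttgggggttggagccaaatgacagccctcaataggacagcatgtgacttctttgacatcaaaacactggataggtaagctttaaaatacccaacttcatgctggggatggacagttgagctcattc

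Glul held 2 CCAAT motifs, the nearer ending 45 bases before the start, and 1 GGGCGG motif ending 27 bases before it. Fabp7 held 2 CCAAT motifs on the reverse strand, the nearer ending 51 bases before the start. Slc1a2 held neither motif and no TATAAA on either strand. Its listed start lies 48199 bases inside the gene, so the window is not the region upstream of the gene's outer end. Of the 32851 listed starts, 33.8% had CCAAT, 32.7% GGGCGG and 12.4% TATAAA in the same window, on either strand. Ndrg2 had 3 listed starts and Dbi 2, and only the outermost of each was read. There Ndrg2 held 1 TATAAA ending 23 bases before the start and 1 GGGCGG, and Dbi held none of the 3 motifs. Sparcl1 had no listed start. GC content was 64.8% for Glul, 62% for Ndrg2, 61.6% for Dbi, 54.8% for Fabp7 and 44.8% for Slc1a2, against a median of 52.4%. The marked motifs do not overlap one another. These matches describe letters in a window, and no binding was measured.

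The arrays differed in how many spots had a value and in how widely the ratios spread. Control arrays 1 and 2 held a value for 73.6% and 64.7% of all spots, and the AT-EAE pair held one for 54.5% and 37.6%. The spread over genes, a standard deviation taken from the median absolute deviation, was 0.18 and 0.23 for the control pair of arrays and 0.17 and 0.33 for the AT-EAE pair. No pair of extracts was hybridised again, so no array has a technical repeat. No spot was assigned to Gfap, Aqp4, S100b or Aldh1l1, the most used astrocyte markers, so the labelled tissue could not be checked against them. Of the 21 assigned genes in a list of other astrocyte genes, 20 had a value on control array 2 and 17 on AT-EAE array 2, where 80.1% and 54.9% of all genes did. Over spots, the ratios of control array 1 correlated most with those of AT-EAE array 2 (r = 0.325) and those of control array 2 with AT-EAE array 1 (r = 0.345). The 2 control arrays correlated at 0.116 and the 2 AT-EAE arrays at 0.205.

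The first question was which member spots had a value, which can be set between AT-EAE and control cord where the sign of a ratio cannot. Of the 10 spots, 9 had a value on each control array, and on the AT-EAE arrays 8 (array 1) and 7 (array 2) did. These are 90%, 90%, 80% and 70%. Over all spots assigned to 1 gene, the shares in the same order were 80.9%, 72.9%, 61.7% and 42.1%. The member share was thus above that of all assigned spots on each of the 4 arrays. Its mean was 90% ± 0 (SD, n = 2) in control and 75% ± 7.07 (SD, n = 2) in AT-EAE, a difference of -15 percentage points. The difference over all assigned spots was -25.0 points. A 2-sided exact permutation test over the 4 arrays gave p = 0.33, the smallest that 2 arrays against 2 allow, so no difference between groups could pass 0.05.

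The missing values fell on Glul and Slc1a2. Fabp7, Sparcl1, Dbi and both Ndrg2 spots had a value on all 4 arrays, as did Glul spots 3248 and 20840. Those 7 spots make 70% of the members, where 39.9% of all assigned spots had a value on all 4 arrays. Glul spot 21741 had no value on any array, as did 16.6% of all assigned spots. Glul spot 4856 had a value on both control arrays and on neither AT-EAE array, a pattern that 12.8% of all assigned spots shared. The spot of Slc1a2 had a value on both control arrays and AT-EAE array 1, and none on AT-EAE array 2. Of all assigned spots, 42.1% had a value on AT-EAE array 2, so a spot without one was common there. A missing value is a spot left without one by the authors, and does not show that the transcript was missing.

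**Figure D1:**
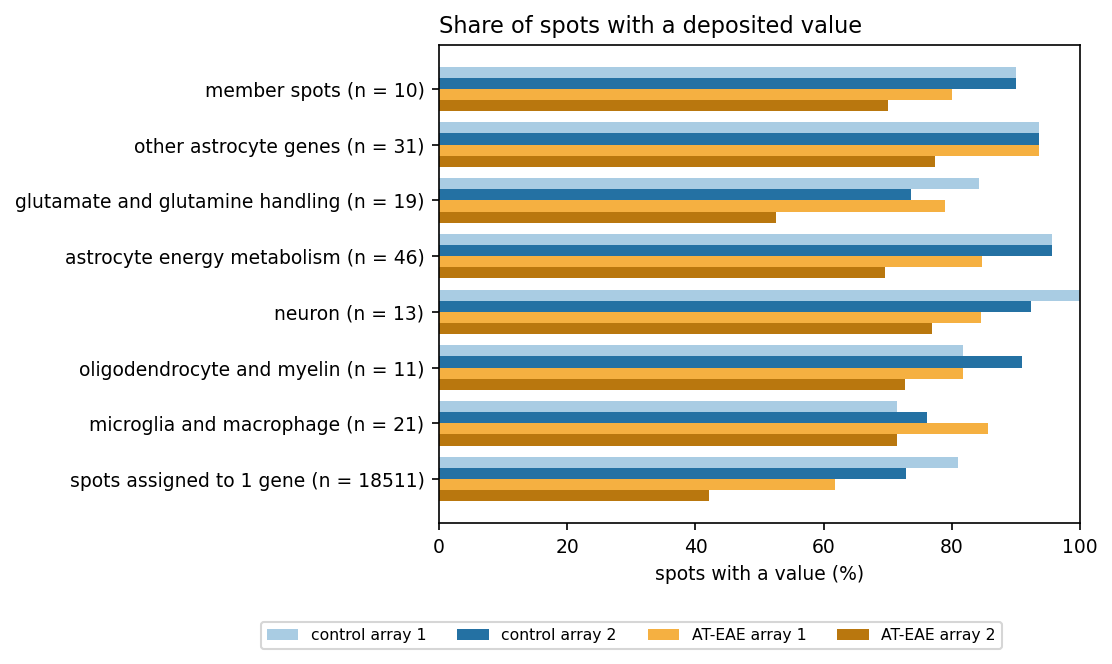
Share of spots with a deposited value, in percent, for the 10 member spots, 6 gene lists and all spots assigned to 1 gene, with 1 bar per array. The member bars run from 90% on both control arrays to 70% on AT-EAE array 2, and the bars of all assigned spots from 80.9% to 42.1%.

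Genes related by function had shares of a like order. The 31 spots of other astrocyte genes had a value in 93.5%, 93.5%, 93.5% and 77.4% on control arrays 1 and 2 and AT-EAE arrays 1 and 2. For 46 spots of energy metabolism genes, such as those of glycolysis, glycogen and fatty acid use, the shares were 95.7%, 95.7%, 84.8% and 69.6%. The 19 spots of other genes of glutamate and glutamine handling had lower shares, of 84.2%, 73.7%, 78.9% and 52.6%. Among markers of other cell types, 13 neuron spots had shares of 100%, 92.3%, 84.6% and 76.9% in the same order, and 11 oligodendrocyte and myelin spots 81.8%, 90.9%, 81.8% and 72.7%. The 21 microglia and macrophage spots had 71.4%, 76.2%, 85.7% and 71.4%, a mean 4.76 points higher in AT-EAE than in control. The part of the makeup of the cord in the member shares was not tested.

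All ratios that follow are log2 ratios from which the array's median over genes was subtracted. A sign has meaning only against other genes of that array, and is not a level in AT-EAE or control cord. The transporter Slc1a2 had 1 spot, with a ratio of 0.16 on control array 1, -0.90 on control array 2 and 0.02 on AT-EAE array 1. It lay far below the median on control array 2 and near it on AT-EAE array 1.

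Glutamine synthetase, Glul, had 3 spots with values, and they did not move as 1. Spot 3248 gave 0.02 and -0.13 between control extracts (arrays 1 and 2) and -0.08 and -0.49 between AT-EAE extracts. Spot 20840 gave 0.04, 0.82, 0.13 and 0.07 in the same order. Spot 4856 gave 0.09 and 1.13 on the control arrays. On control array 2, 2 spots of Glul were thus far above the median and the third slightly below it, a range of 1.26. Of 864 genes with 3 valued spots on that array, 98.3% had a smaller range, and the median range was 0.38. The mean over spots was 0.61 ± 0.66 (SD, n = 3 spots) on control array 2, so this gene-level value does not stand clear of the spread between its own spots. On control array 1 the 3 spots lay within 0.07 of each other, with a mean of 0.05 ± 0.04 (SD, n = 3 spots). On AT-EAE arrays 1 and 2 the mean of its 2 valued spots was 0.03 ± 0.15 and -0.21 ± 0.40 (SD, n = 2 spots).

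The lipid carriers had 1 spot each. Fabp7 had ratios of 0.25 and 0.84 on control arrays 1 and 2, and of 0.04 and -0.10 on AT-EAE arrays 1 and 2. Its value on control array 2 was the 8th highest of the 8187 genes measured there, at percentile 99.9. Dbi, the acyl-CoA binding protein, had ratios of 0.25, 0.497, 0.28 and 0.06 in that order. It was the only member at or above percentile 92.1 on each of the first 3 of these arrays, and stood at percentile 56.9 on AT-EAE array 2.

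Ndrg2 was measured by 2 spots. Spot 21090 gave 0.27, 0.84, 0.01 and -0.04 on control arrays 1 and 2 and AT-EAE arrays 1 and 2, and spot 23151 gave 0.29, 0.31, 0.21 and 0.81. The spots lay 0.02 apart on control array 1, closer than in all but 5.81% of genes with 2 valued spots there. They lay 0.53 apart on control array 2 and 0.86 apart on AT-EAE array 2, where 86.3% and 90.7% of such genes had spots closer together. Each spot was high on 1 array where the other was not. The means were 0.28 ± 0.01, 0.57 ± 0.38, 0.11 ± 0.14 and 0.38 ± 0.61 (SD, n = 2 spots), in the same order.

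Sparcl1 had ratios of 0.57 and -0.19 between control extracts (arrays 1 and 2) and of -0.16 and 0.41 between AT-EAE extracts (arrays 1 and 2). On control array 1 it was the highest member, at percentile 99.6 of 8818 genes. On control array 2 it was below the median with Slc1a2, at percentile 22.5. The matrix protein gene was thus high on 1 array of each group and below the median on the other.

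**Figure D2:**
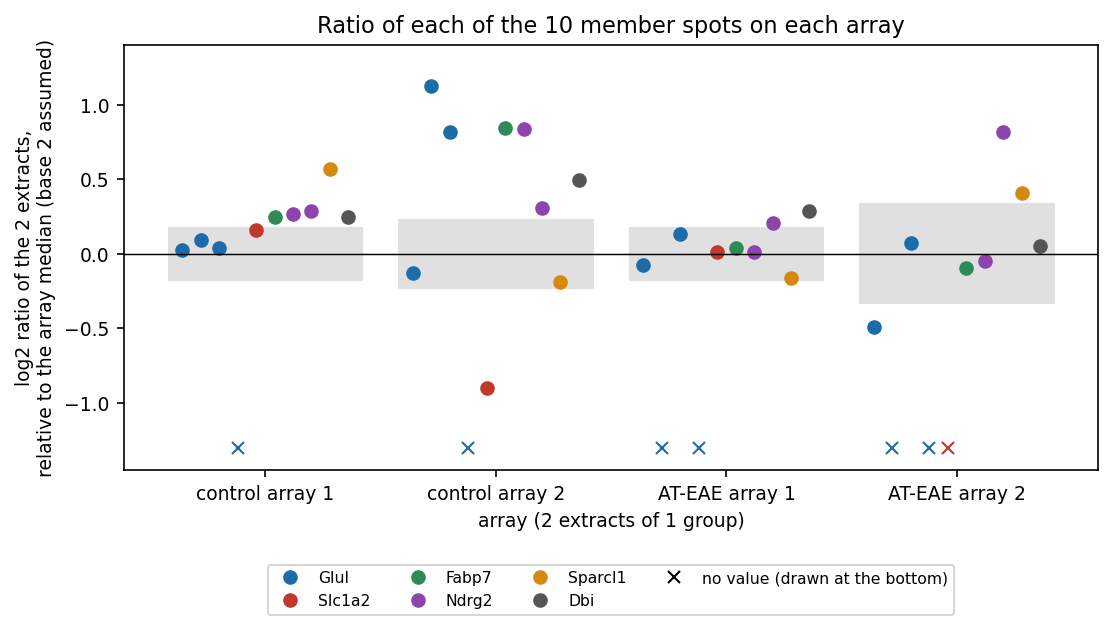
Log2 ratio of each of the 10 member spots relative to the array median, on the 4 arrays, with crosses for spots without a value and grey bands for 1 SD over genes either side of the median. On control array 2 Slc1a2 lies at -0.90, while Fabp7, 2 Glul spots and 1 Ndrg2 spot lie between 0.82 and 1.13.

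The next question was whether the 6 genes moved together, and whether Slc1a2 moved apart. On control array 1 all 6 were above the array median, from 0.05 for Glul to 0.57 for Sparcl1. Only Sparcl1 reached 0.5, as did 0.771% of all genes, and no member was at or below -0.5, as were 2.02% of genes. Slc1a2 was -0.09 from the median of the other 5 genes, which is -0.49 of the array's SD over genes. It was inside the range of the others.

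On control array 2 the members split. Fabp7 at 0.84, Glul at 0.61 and Ndrg2 at 0.57 were past 0.5, as were 1.28% of all genes, and Dbi at 0.497 was just short of it. From the 2 Glul spots with a value on all 4 arrays, Glul was at 0.30 and not past 0.5. The percentiles of Fabp7, Glul (mean of its 3 valued spots), Ndrg2 and Dbi were 99.9, 99.6, 99.4 and 98.6 of 8187 genes. Slc1a2 at -0.90 was at percentile 0.574, and 4.51% of all genes were at or below -0.5. If the base was 2, the extracts differed 1.79-fold for Fabp7, 1.52-fold for Glul, 1.49-fold for Ndrg2 and 1.41-fold for Dbi in one direction, and 1.87-fold for Slc1a2 in the other. Slc1a2 was -1.47 from the median of the other 5 genes, or -6.47 SD over genes, and it lay below the lowest of them, Sparcl1. That SD is of the ratios of single genes, not of a gap between a gene and a median of others. The ratio of Slc1a2 itself was -3.97 SD from the array median. The range over the 6 genes was 1.75, against 0.52 on control array 1.

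This separation of Slc1a2 rests on 1 spot on 1 array, with no repeat of the same pair of extracts. Of the 3458 genes measured by a single spot on control array 2, 0.781% were lower than Slc1a2 and 5.03% were at or below -0.5. Spots near each other on the array had correlated ratios (r = 0.218 between spots 26 apart on control array 2, a description over spots). The median of the spots around each member there lay between -0.10 and 0.11, and with these medians subtracted Slc1a2 was -1.42 from the median of the other 5 genes. This subtraction was chosen after seeing the data, and the part of array position in the ratio was not tested.

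On AT-EAE array 1 the members ran from -0.16 for Sparcl1 to 0.28 for Dbi, a range of 0.45 against 0.52 on control array 1. None was at or above 0.5, as were 0.581% of genes, and none at or below -0.5, as were 2.91%. Slc1a2 was -0.02 from the median of the other 5 genes, or -0.14 SD. On AT-EAE array 2, 5 members had a value, from -0.21 for Glul to 0.41 for Sparcl1. No gene-level member ratio reached 0.5 in either direction there, where 7.75% of genes were at or above 0.5 and 7.00% at or below -0.5. Slc1a2 had no value there, so its place among the others is not known for that pair of extracts. Slc1a2 thus stood apart on 1 of the 3 arrays that measured it.

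**Figure D3:**
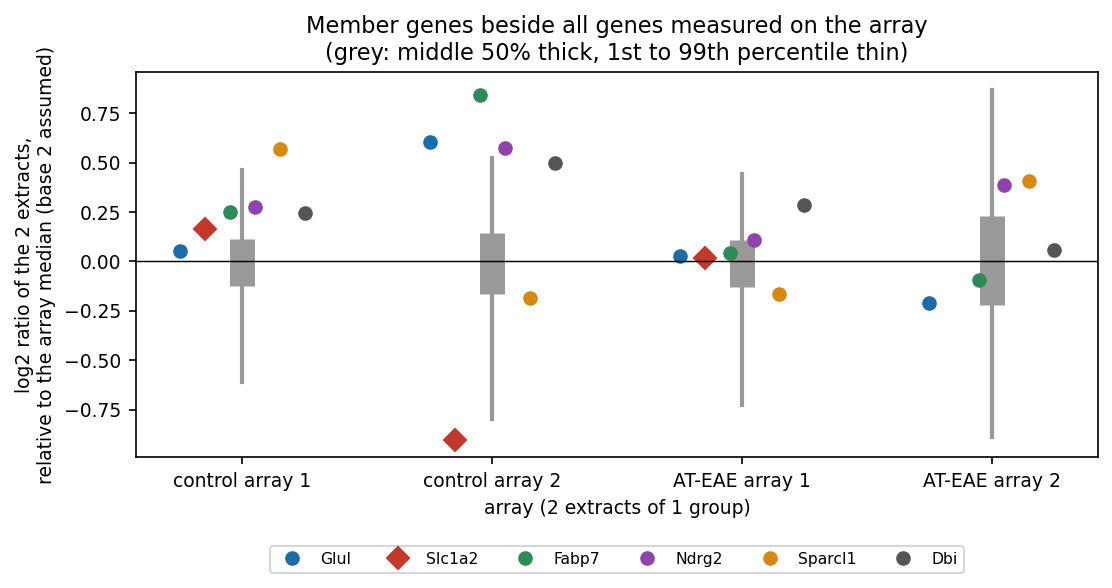
Log2 ratio of each member gene (mean over its spots) relative to the array median on the 4 arrays, beside the middle 50% (thick grey bar) and the 1st to 99th percentile (thin grey line) of all genes. Slc1a2 (red diamond) lies below the thin line on control array 2 at -0.90, and among the other members on control array 1 and AT-EAE array 1.

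The members' ratios on control array 2 went with their gene spans: the 4 genes under 10 kb were highest, Sparcl1 was next and Slc1a2, the longest, was lowest. Among the 4 shorter genes the order of the ratios was not that of the spans. Ratios of all genes on that array also went with span. The median was 0.08 for 1955 genes under 10 kb, 0.01 from 10 to 30 kb, -0.04 from 30 to 100 kb and -0.08 for 1030 genes of 100 kb or more. Spearman's rank correlation between ratio and span was -0.230 over 8078 genes there, and 0.0186, -0.0620 and 0.0281 on control array 1, AT-EAE array 1 and AT-EAE array 2. These correlations run over the genes of a single array, which are not replicates of each other. Among the genes of 100 kb or more on control array 2, 8.74% were at or below -0.5 and 1.26% were lower than Slc1a2. Among those under 10 kb, the class of Fabp7, Glul, Ndrg2 and Dbi, 2.76% were at or above 0.5 there. Measured against the median of genes in the same span class, Slc1a2 was at -0.83, Fabp7 at 0.76 and Glul at 0.53 on control array 2, and Slc1a2 was -1.32 from the median of the other 5. The span is the length in the genome, not that of the transcript, and its part in these ratios was not tested beyond this.

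**Figure D4:**
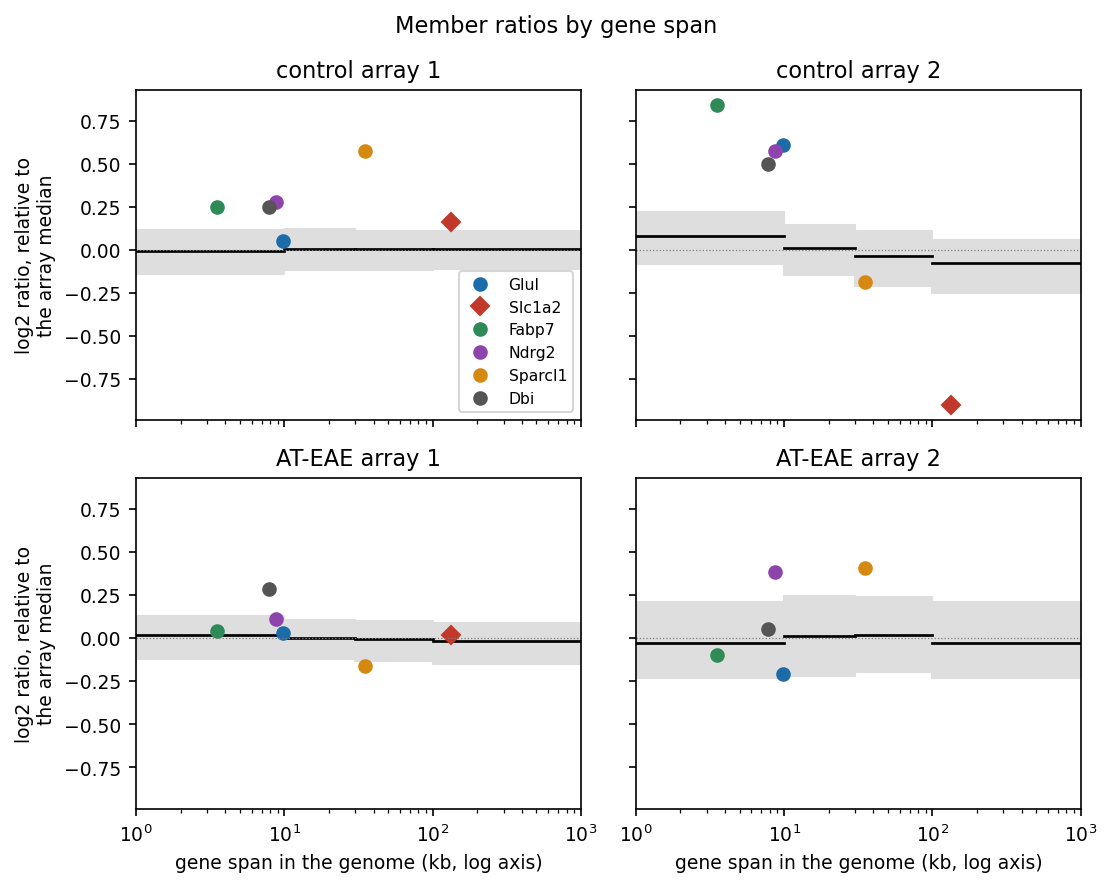
Log2 ratio of the member genes relative to the array median against gene span in kb (log axis), 1 panel per array, with the median (line) and middle 50% (grey) of all genes in 4 span classes. On control array 2 the class medians step from 0.08 to -0.08 and the members run from 0.84 for Fabp7 to -0.90 for Slc1a2.

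Other genes of related functions were also read on control array 2. In the list of other astrocyte genes, 15 of 20 were above the median, with a list median of 0.11 and none past 0.5 in either direction. The highest were Id3 (an inhibitor of helix-loop-helix factors) at 0.47, Gstm1 (a glutathione transferase) at 0.40, Cst3 (cystatin C) at 0.33 and Slc4a4 (a bicarbonate transporter) at 0.33. Of the glutamate and glutamine handling genes, 7 of 11 were above the median (list median 0.13). Gss (glutathione synthetase) at -0.52 was the only one past 0.5 in size, and the glutamine transporters Slc38a3 and Slc38a2 were at 0.43 and 0.37. Slc1a3, which encodes GLAST, the other glutamate transporter of astrocytes, was at 0.14 on that array. Over the 4 arrays Slc1a3 had ratios of 0.17, 0.14, -0.05 and 0.28, and it did not share the low value of Slc1a2.

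Energy metabolism genes had a list median of 0.05, with 16 of 24 above the array median and none past 0.5. Pgm1 (phosphoglucomutase) at 0.36 and Ldha (lactate dehydrogenase) at 0.29 were among the highest, and Pygb (glycogen phosphorylase) at -0.34 and Hadha (a fatty acid oxidation enzyme) at -0.32 the lowest. Among family relatives of the 6 genes, 8 of 14 were above the median (0.03), and Spock1, a matrix proteoglycan of the Sparc family, was at -1.06, below Slc1a2. Spock1 had 1 spot, and others of that family were nearer the array median: Sparc at 0.19, Smoc1 at 0.18, Spock2 at -0.09 and Smoc2 at -0.19.

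Markers of other cells were also read on control array 2. Neuron genes had a median of 0.04, with 5 of 8 above the array median and a range from -0.60 (Syt1, a synaptic vesicle protein) to 0.22 (Tubb3, a neuronal tubulin). All 6 oligodendrocyte and myelin genes measured were below it, from -0.30 to -0.01. Of microglia and macrophage genes, 10 of 13 were above it, from -0.28 to 0.19, and of meningeal and fibroblast genes 2 of 8, from -0.46 to 0.15. The 1 Schwann cell gene with an assigned spot, Dhh, had no value there. Ribosomal protein genes, added as a list after their ratios were seen, had a median of 0.29, with 57 of 62 above the array median and 7 at or above 0.5. The part of any of these in the ratios of the 6 genes was not tested.

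**Figure D5:**
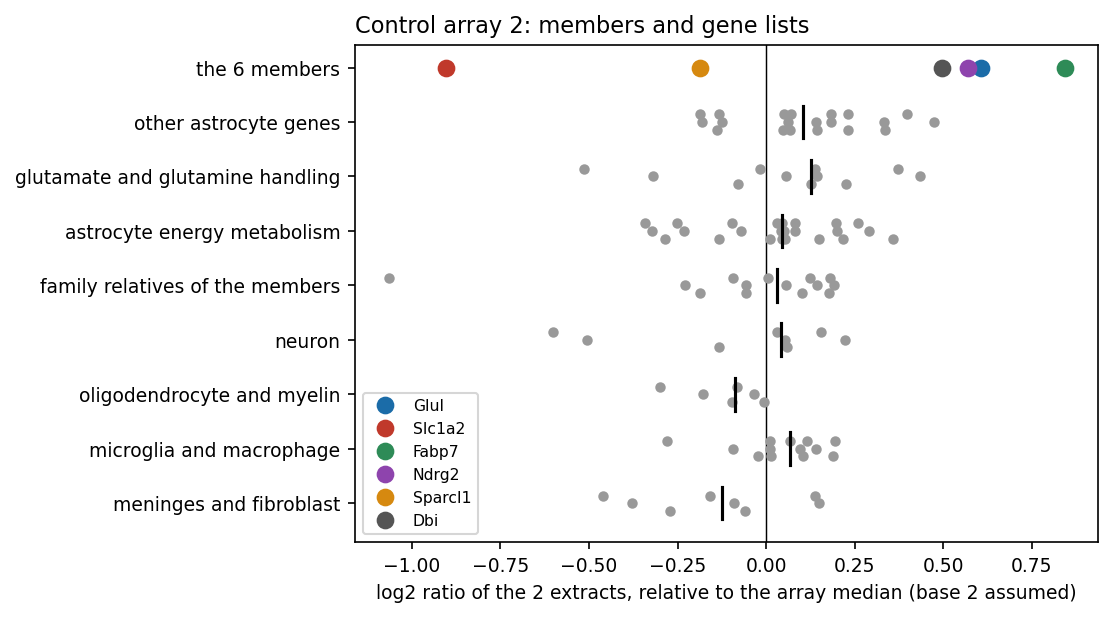
Log2 ratio relative to the array median on control array 2 for the 6 member genes (coloured) and the genes of 8 lists (grey points, 1 per gene), with a vertical bar at each list's median. Of the other astrocyte genes none lies past 0.5 in either direction, while Fabp7, Glul and Ndrg2 lie above 0.5 and Slc1a2 at -0.90.

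The related genes were then read on the other arrays. On control array 1, 11 of 20 other astrocyte genes, 8 of 12 glutamate handling genes and 18 of 24 energy metabolism genes were above the median, with list medians of 0.04, 0.09 and 0.12. All 6 members were above it there. Acbd6, a relative of Dbi with an acyl-CoA binding domain, was at 0.94 from 1 spot. The other such relatives, Acbd3, Acbd4 and Acbd5, were at 0.07, 0.02 and 0.21.

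On AT-EAE array 1 the counts above the median were 6 of 20, 7 of 12 and 13 of 23. Gja1 (connexin 43, the main gap junction protein of astrocytes) at -0.56 and Cpt1a (which carries fatty acids into mitochondria) at -0.57 were past 0.5. On that array all 13 microglia and macrophage genes measured were below the median, with a list median of -0.28 and Lyz2 (lysozyme) at -1.02, and all 6 oligodendrocyte genes too, with a list median of -0.29. The members ranged from -0.16 to 0.28 beside them.

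On AT-EAE array 2 the counts above the median were 15 of 17, 7 of 9 and 18 of 20, with list medians of 0.16, 0.28 and 0.31. Gja1 was at 1.02 there and Plpp3 (a lipid phosphate phosphatase of astrocytes) at 0.97, both from 1 valued spot and above the highest member, Sparcl1 at 0.41. From 3 spots, Plpp3 was at -0.21 and -0.18 on control arrays 1 and 2 and at -0.17 on AT-EAE array 1. Clu, of the same astrocyte list, was at -0.51 on AT-EAE array 2. Of the members, 3 of 5 were above the median: Sparcl1, Ndrg2 and Dbi. Fabp7 at -0.10 and Glul at -0.21 were below it. The low Glul value came from spot 3248. Its surrounding spots, in the layout inferred from the ratios, had a median of -0.57 as deposited on that array. The spot itself was 0.01 above that median. On control arrays 1 and 2 and AT-EAE array 1, spot 3248 was 0.02, -0.02 and 0.01 from the median of its surrounding spots. The part of array position in its ratios was not tested.

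Whether a member's ratio was shared by all 4 arrays, as a channel effect would be, was tested with limma on the ratios as deposited, for spots with a value on all 4. Of the 7 member spots tested, 0 were called at an adjusted p of 0.05, as against 0.0395% of the 10133 spots tested (4 spots, all lower). The nearest was Ndrg2 spot 23151, with a mean log2 ratio of 0.39 ± 0.12 (SE) and a Benjamini-Hochberg adjusted p of 0.254 (limma). It was above the array median on 4 of 4 arrays. Dbi, also above it on 4 of 4, had 0.25 ± 0.11 (SE) with an adjusted p of 0.389 (limma). The share of all tested spots above the median on 4 of 4 arrays is not given here, so these sign counts are a description only. With 1 array left out, limma takes the spread from the group that keeps 2 arrays, and the lone array is assumed to vary like them. Without AT-EAE array 1 it called 740 spots, and Ndrg2 spot 23151 was among them at 0.52 with an adjusted p of 0.00990. All 7 member spots had the same SE of 0.14 in that fit, so the call does not rest on the spot's own replicates, and its adjusted p was 0.534 to 0.611 with any other array left out. The count was 36 without control array 1, 29 without control array 2 and 134 without AT-EAE array 2. Slc1a2 could be tested only among spots with a value on 3 or more arrays, where limma gave -0.17 ± 0.20 (SE) and an adjusted p of 0.769.

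The same fit gave the difference in ratio between groups, AT-EAE minus control, which is not a change of level since extract numbers are arbitrary. It called 0 spots of 10133 (0.00%), with 366 at an unadjusted p under 0.05. It called 326 without AT-EAE array 1, 22 without control array 1, 3 without control array 2 and 18 without AT-EAE array 2, each with the spread of the group that keeps 2 arrays. Among members the largest were Fabp7 at -0.61 ± 0.25 (SE) and Ndrg2 spot 21090 at -0.60 ± 0.25 (SE), both with a limma adjusted p of 1.00. Without control array 2 they were -0.30 and -0.31.

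The size of the ratio, without its sign, is a measure of how far 2 extracts of a group differed. For Fabp7 it was 0.25 and 0.84 between control extracts, then 0.04 and 0.10 between AT-EAE extracts, a mean of 0.55 ± 0.42 against 0.07 ± 0.04 (SD, n = 2). Its groups did not overlap, as in 11.1% of the 5429 genes with a value on all 4 arrays that had both AT-EAE sizes below both control sizes. Means of the other members were 0.33 ± 0.39 against 0.12 ± 0.13 for Glul, 0.42 ± 0.21 against 0.25 ± 0.19 for Ndrg2, 0.37 ± 0.18 against 0.17 ± 0.16 for Dbi and 0.38 ± 0.27 against 0.29 ± 0.17 for Sparcl1 (SD, n = 2). Slc1a2 had 0.53 ± 0.52 (SD, n = 2) in control against 0.02 on its single AT-EAE array. The control values of Glul include spot 4856, which had no value on either AT-EAE array. From the 2 Glul spots with a value on all 4 arrays, the Glul difference was -0.06 in place of -0.21. All 6 means were lower in AT-EAE, as were those of 39.4% of the 5429 genes with a value on all 4 arrays, which do not include Slc1a2. The median difference over those genes was 0.03. A 2-sided exact permutation test gave p = 0.33 for Fabp7 and 0.667 for each of the other 5, all 0.667 after adjustment over the 6 genes. The smallest p possible was 0.33. These differences moved with the array left out. Without control array 1 they were between -0.32 (Ndrg2) and -0.89 (Slc1a2) for the 5 genes other than Sparcl1. Without control array 2 that of Fabp7 moved from -0.48 to -0.18, of Slc1a2 from -0.52 to -0.15, of Ndrg2 from -0.18 to -0.03, of Dbi from -0.20 to -0.08 and of Glul from -0.21 to 0.07. Ndrg2 was at -0.04 without AT-EAE array 1, and Dbi at -0.09 without AT-EAE array 2. For Sparcl1 the difference of -0.09 was 0.10 without control array 1 and 0.03 without AT-EAE array 1.

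Genes most like the members in their ratios were sought among 1555 genes with at least 2 valued spots on each array. Likeness was the distance over the arrays, in SD over genes of each array. Nearest to the median of the 5 members other than Slc1a2, over 4 arrays, were Rpl30 (a ribosomal protein) at a distance of 0.588, Cd151 (a tetraspanin) at 0.707, Aldoa (a glycolytic aldolase) at 0.936, Wsb2 at 1.07 and Cox7a2 (a respiratory chain subunit) at 1.14. Their ratios on control array 2 ran from 0.36 for Wsb2 to 0.54 for Cd151. Nearest to Slc1a2, over the 3 arrays that measured it, were Arhgef12 at 0.841, Aak1 (an adaptor-associated kinase) at 1.11, Eprs (a tRNA synthetase) at 1.34, Sf3b2 (a splicing factor) at 1.69 and Ankrd11 at 1.69. Their ratios on control array 2 ran from -0.90 for Ankrd11 to -0.55 for Sf3b2. The genes like the 5 members spanned 2.77 to 21.3 kb, and those like Slc1a2 21.5 to 159 kb. These genes were picked by ratios, which went with span over all genes of control array 2 (Spearman's rank correlation -0.230). A difference in span can thus come from the choice alone, and the part of span was not tested here.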

How the data were processed

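Each sample was 1 two-channel cDNA array. The deposited values were taken as log2 ratios of the normalized green and red signals, which per the labels were compared within each slide. The sources used here do not give the base, the numerator, background correction, spot filter or software. Spots were named through the platform's clone annotation. Symbols of 18267 spots were updated through gene identifiers to the RefSeq table (GRCm38.p6) and 244 were kept. Valued spots of a gene were averaged, minus the median over genes of that array. A difference of 0.5 on this scale was the size counted. Groups were compared by 2-sided exact permutation over the 4 arrays, and spots with a value on all 4 arrays by limma 3.58.1 in R 4.3.3 with Benjamini-Hochberg adjustment at 0.05, tested on simulated data first. Python 3.11.15, pandas 2.3.3, numpy 2.4.6 and scipy 1.17.1 were used.

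Named genes were the 6 members, up to 4 genes of each list with the largest ratio per array, and the 5 nearest genes by distance. Members and lists were chosen with earlier results of these data known. Alternatives changed the spot summary, spot selection, symbols, scaling, normalization, size threshold, replicate block and the arrays included. Precision is limited by the number of arrays, and no depth or signal level was analysed.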

Additional observations from a re-analysis of the deposited data

How the results depend on the processing

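Slc1a2 on control array 2 stayed below the median of the other 5 genes under each alternative that gave it a value; restricting to spots valued on all 4 arrays leaves it out. On AT-EAE array 1 the gap was 0.70 after subtraction of the control arrays' mean, an alternative that by construction carries the ratios of control array 2 over. Glul on control array 2 was 0.30 from spots valued on all 4 arrays. At a size of 1, genes counted were 11, 33, 28 and 58 on control arrays 1 and 2 and AT-EAE arrays 1 and 2, against 246, 474, 258 and 828. The limma count of spots with a shared ratio, 4, was 8 with spots valued on 3 or more arrays, 1 with genes as features and 29 to 740 with 1 array left out. The group difference, with 0 spots called, gave 3, 1 and 3 to 326. Array number as a replicate block gave 49 and 21 spots. Same-numbered arrays deviated oppositely (r = -0.329 over 10133 spots), which is 1 value with 2 arrays a group, and the labels give the numbers no shared batch. Crossed numbers, chosen after seeing the data, gave 4 and 0. The difference in mean absolute ratio ranged with 1 array left out from -0.49 to 0.066 for Glul (0.066 without control array 2) and from -0.29 to 0.099 for Sparcl1 (0.099 without control array 1 and 0.028 without AT-EAE array 1). The surround and span class alternatives were also chosen after seeing the data. Beyond the construction named above, the cause of these changes was not tested.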
